A study of Rattus norvegicus and Mus musculus with 3 samples.

Results

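The cytosolic ribosomal protein genes were taken by symbol, as Rpl or Rps followed by a number with or without the letter a, l or x, plus Rplp0, Rplp1, Rplp2 and Rpsa. The rule found 81 genes among the 30438 listed for the rats and 81 among the 34714 listed for the mouse, which together are 82 different symbols. Of the rat genes 49 encode proteins of the large subunit and 32 proteins of the small subunit. Hippocampal total RNA was sequenced in 3 libraries, 1 per group. The first group is a 2VO rat and the second a Sham rat, both labelled WT in genotype and 3 to 4 months old. The third is a 6 month old wild-type mouse from the 3xTg-AD model. 2VO is the usual short name for tying off both common carotid arteries, which reduces cerebral blood flow and serves as a model of vascular dementia, and Sham for the operation without the ties. The labels give neither the time after surgery nor the sex, and do not say whether a library holds 1 animal or a pool.

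The ribosome is built from ribosomal RNA and about equal numbers of each of its proteins, which are made in the cytoplasm and join the RNA in the nucleolus. The small subunit reads the mRNA, and the large subunit joins amino acids and passes the new chain through its exit tunnel. In mammals most mRNAs for these proteins begin with a cytosine and an unbroken run of pyrimidines, the 5′ terminal oligopyrimidine tract or TOP, through which mTOR signalling controls their translation. Neurons also place such mRNAs in dendrites and axons, where new proteins are made for lasting synaptic change.

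Start sites of 8 members described further on are shown, because the pyrimidine run is a feature that most members share. All 8 carry a run of at least 8 C and T letters, which not every member does. Some other members with large differences are not shown. Each is 60 bases of rat sequence from RefSeq, build GRCr8, running from 40 bases before the annotated start site to 20 bases into the transcript on the gene's own strand. Capitals mark the longest unbroken run of C and T letters near the start. In Rplp2 this run lies wholly before the annotated start site, so the annotated transcript does not begin with it.
Rplp2, chr1:205975881-205975940, plus strand: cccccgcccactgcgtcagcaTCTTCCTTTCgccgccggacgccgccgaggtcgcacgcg
Rplp1, chr8:71290853-71290912, minus strand: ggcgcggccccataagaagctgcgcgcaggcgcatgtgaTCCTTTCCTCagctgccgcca
Rpl31, chr9:49143071-49143130, plus strand: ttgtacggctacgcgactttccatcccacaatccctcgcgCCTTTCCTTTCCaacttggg
Rpl35a, chr11:81235002-81235061, minus strand: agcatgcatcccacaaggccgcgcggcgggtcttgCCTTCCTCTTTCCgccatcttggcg
Rps9, chr1:74430418-74430477, minus strand: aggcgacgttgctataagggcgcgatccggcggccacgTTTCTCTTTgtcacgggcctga
Rps15, chr7:10068096-10068155, minus strand: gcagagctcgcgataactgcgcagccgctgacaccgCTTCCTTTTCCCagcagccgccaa
Rps18, chr20:4933705-4933764, plus strand: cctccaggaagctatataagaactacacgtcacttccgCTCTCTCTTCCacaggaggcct
Rps21, chr3:187723998-187724057, plus strand: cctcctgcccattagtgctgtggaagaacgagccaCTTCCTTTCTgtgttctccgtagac

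A start-site window was given for 64 rat members, with 65 windows in all because Rps27a has a pair. A run of at least 8 C and T letters within 30 bases of the start site stood in 53 of the 65 windows, or 81.5%, against 28.1% of all 33469 windows in the table. The longest run had a median of 11 bases among members and 6 bases among all windows. Genes of the large and small subunits were alike in this, at 82.1% of 39 windows and 80.8% of 26 windows. Over the full 300 bases and on either strand, CTTTCC, which can lie inside such a run, was in 47.7% of member windows and 26.4% of all windows. CCGGAAG was in 30.8% and 8.75%, GGGCGG in 58.5% and 33.1%, AAGATGGC in 7.69% and 3.17%, and TATAAA in 10.8% and 14.2%. These letters describe the windows and say nothing of which factors act there.

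The deposited values are normalized, and neither the labels nor the files state their unit. Comparisons of level between genes hold only if that unit is per length, and the read depth behind each value is unknown. The values of all genes summed to 333941 units in 2VO, 325636 in Sham and 268889 in the mouse. With 1 library per group no difference has a replicate check, no test was run, and every comparison describes these libraries and not the conditions. Ratios of 2VO to Sham are log2 with 1 unit added to both values, over genes averaging at least 1 unit in the rats, called measured here; this shrinks the ratios of low genes. The labelled tissue carried the neuron markers looked up, and 0 of the markers looked up was listed at 0 in a library. The 6 neuron markers summed to 2186 units in 2VO and 2181 in Sham, but 2 were higher and 4 lower in 2VO. Snap25 was at 614 units in 2VO and 454 in Sham, and Wfs1 at 111 in 2VO and 169 in Sham. The near equal sums therefore do not show equal neuron content.

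Ribosomal protein genes were among the most abundant transcripts of every library. Their median rank among genes above 0 was percentile 98.8 in 2VO, 98.8 in Sham and 98.2 in the mouse. The members summed to 13306 units in 2VO and 14036 in Sham, which is 3.98% and 4.31% of all values, and to 8801 units or 3.27% in the mouse. At least 50 units were reached by 73 of 81 members in 2VO, 72 of 81 in Sham and 69 of 81 in the mouse. Most lay near a common level, with 66 members in 2VO, 67 in Sham and 63 in the mouse within 2-fold of the median member, which was 171 units in 2VO, 165 in Sham and 95.8 in the mouse. The most abundant in Sham was Rps15 at 381 units, followed by Rpl9 at 365, Rpl21 at 358, Rpl37a at 328 and Rps29 at 326. The 100 most abundant genes of each table included 2 members in 2VO, 9 in Sham and 4 in the mouse. A wider cut held 62 members in 2VO, 60 in Sham and 45 in the mouse. The order of the rats thus turned with the cut, so the 2 against 9 is not read as a difference in rank.

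**Figure D1:**
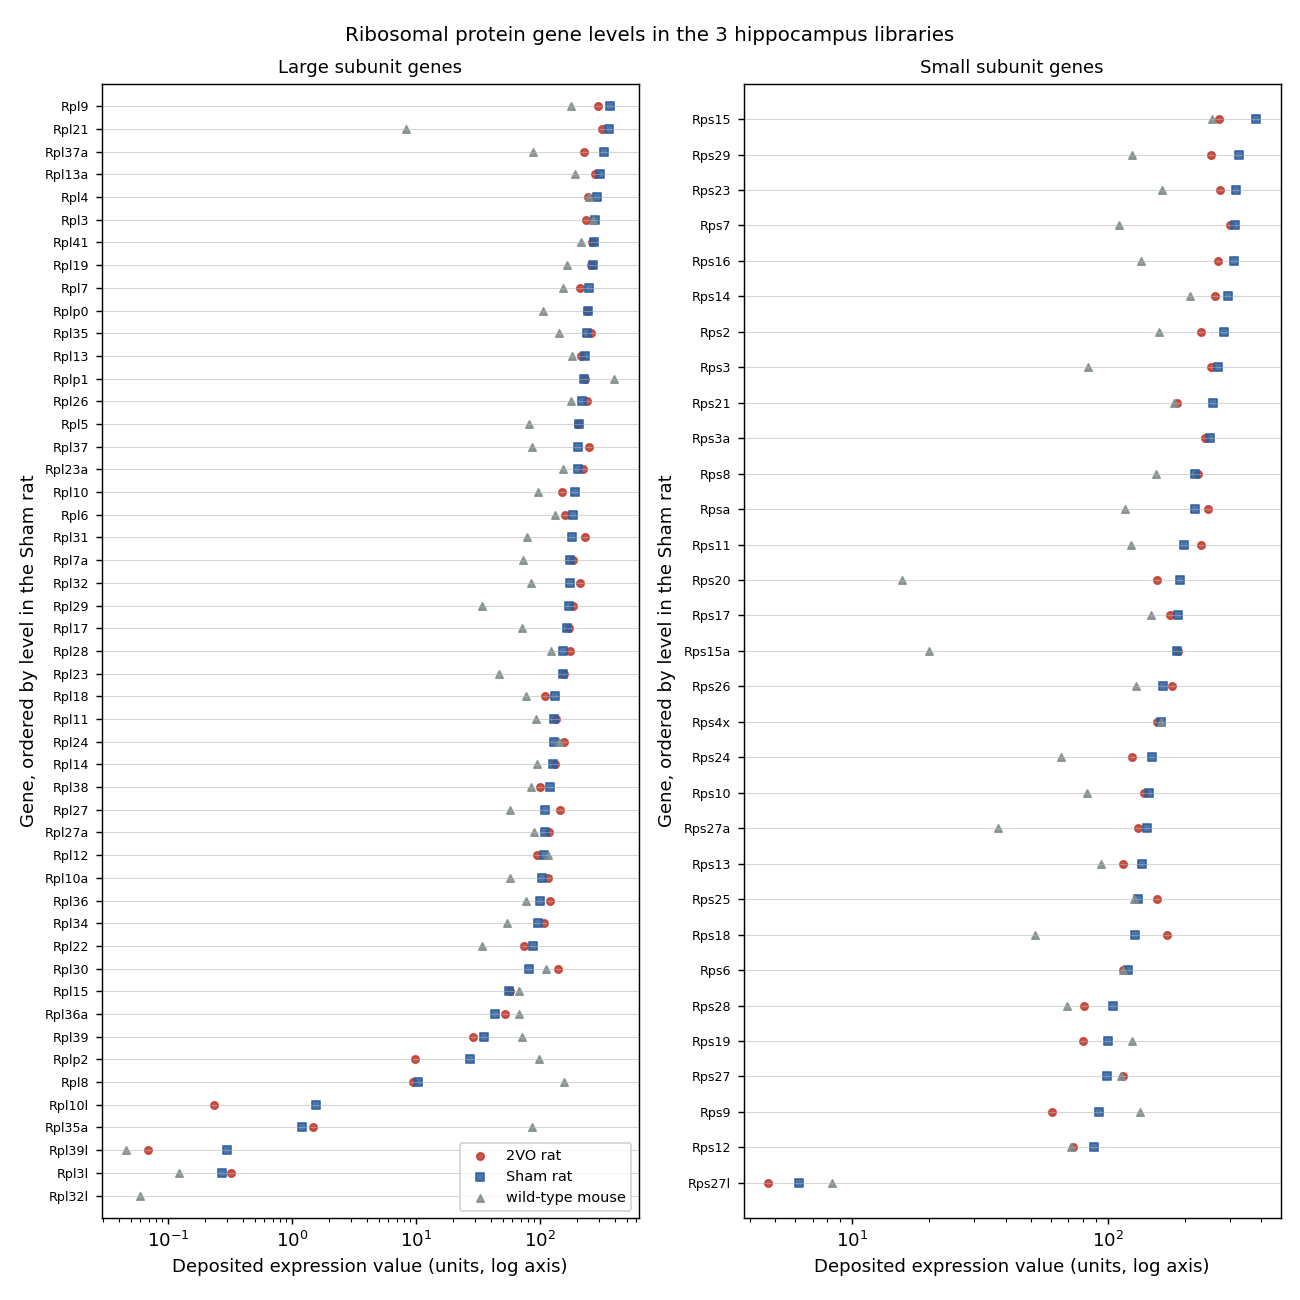
Deposited expression value of the ribosomal protein genes, 2 of them left out, in the 2VO rat (circles), the Sham rat (squares) and the wild-type mouse (triangles) on a log axis in units, by subunit, with values of 0 left out. Most genes lie above 50 units in the rats, while Rpl35a, Rpl8 and Rplp2 lie far below in the rats and Rpl21, Rps20 and Rps15a far below in the mouse.

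Between the rats the small subunit genes were slightly lower in 2VO and the large subunit genes were divided. Of 32 small subunit genes, 8 were higher and 24 lower in 2VO, that is 25% higher, whereas 58.7% of all 13550 measured genes were higher and 41.3% lower. Their median log2 ratio was -0.11, against 0.04 over all measured genes. Of 46 measured large subunit genes 24 were higher in 2VO and 22 lower, and their median of 0.02 turned to between -0.03 and -0.02 when the libraries were rescaled, as the closing section lists. After rescaling 25 to 28 of the 46 were lower. Rescaling moved the median of all genes to between -0.009 and 0.006, the share of all genes higher in 2VO to between 48.1% and 51.3%, and the count of small subunit genes lower in 2VO to 26 of 32. The small subunit median was 0.15 below that of all genes as deposited; a scaling moves both nearly alike, so it hardly bears on this gap. The small subunit genes summed to 5591 units in 2VO and 6110 in Sham, a ratio of 0.915, and the large subunit genes to 7714 units in 2VO and 7926 in Sham, a ratio of 0.973. These differences are small: the quartiles ran from -0.29 to -0.04 in the small subunit and from -0.22 to 0.14 in the large. In bulk tissue fewer cells of a type and less RNA per cell cannot be told apart.

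Few members differed by much. At least 1.5-fold after adding 1 unit, 1 member was higher, Rpl30, and 2 were lower, Rplp2 and Rps9, out of 78 measured, beside 1.51% of all measured genes higher and 0.967% lower. Those 3 of 78 are close to the 2.48% of all measured genes that were apart in either direction. Summed with other rows of the same name in the tables, Rpl30 and Rps9 both came under 1.5-fold, which left 0 members higher and 1 lower, Rplp2. Rplp2 had no measured row of the same name to add.

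**Figure D2:**
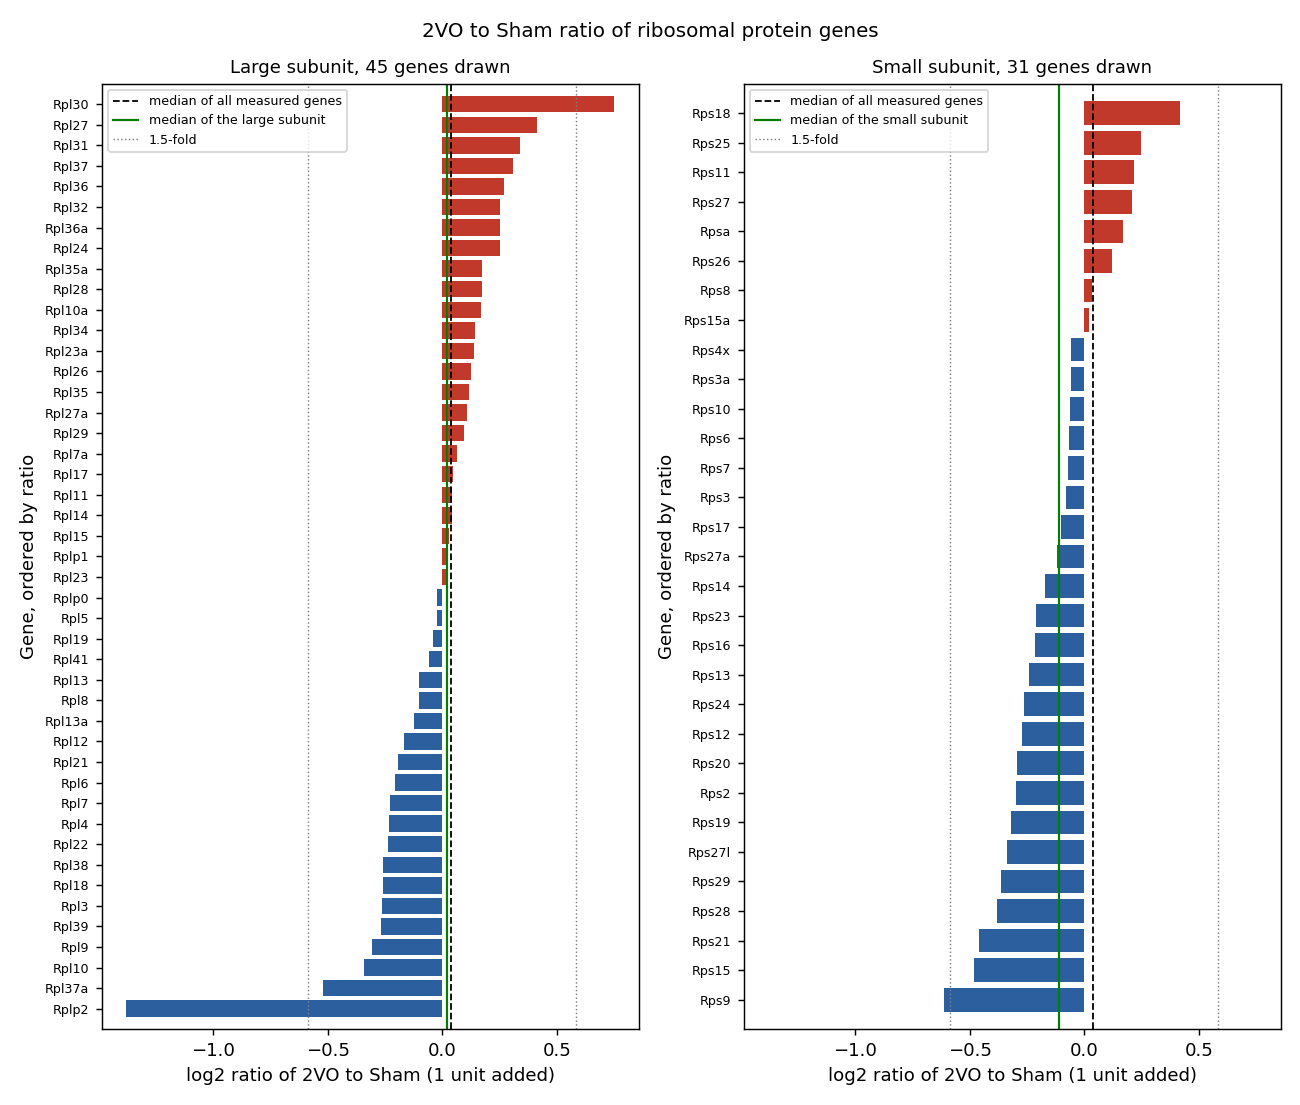
The log2 ratio of 2VO to Sham for the measured members, 2 of them left out, with 1 unit added, large subunit left and small subunit right; red bars are higher and blue bars lower in 2VO. Green lines mark the subunit medians of 0.02 (below 0 when the libraries are rescaled) and -0.11, dashed lines the median of 0.04 over all measured genes, and dotted lines 1.5-fold.

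The stalk of the large subunit recruits the elongation factors and holds Rplp0, Rplp1, Rplp2 and Rpl12. Rplp2 had the lowest ratio of all members, with 9.86 units in 2VO, 27.3 units in Sham and 97.7 units in the mouse, a log2 ratio of -1.38. Its partner Rplp1 was at 231 units in 2VO, 228 in Sham and 398 in the mouse. In the ribosome these proteins sit as pairs on Rplp0, which was at 241 units in 2VO, 245 in Sham and 105 in the mouse. Rpl12, at the base of the stalk, was at 95.2 units in 2VO, 107 in Sham and 116 in the mouse. Rplp2 thus stood apart from the other stalk genes in level within each rat, and in the ratio between the rats. The reference lists 5 further loci named for Rplp2, none of which is among the measured rows of the rat tables by the matching used here.

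Rpl5 and Rpl11 bind the 5S ribosomal RNA and, when ribosome assembly fails, the p53 regulator Mdm2. Rpl5 was at 201 units in 2VO, 205 in Sham and 81.8 in the mouse, and Rpl11 at 135 in 2VO, 131 in Sham and 93.4 in the mouse. Their log2 ratios of -0.02 and 0.04 were near the median of all genes. Rpl3 and Rpl10, which reach towards the peptidyl transferase centre, were lower in 2VO. Rpl3 was at 233 units in 2VO and 280.3 in Sham, and Rpl10 at 151 in 2VO and 191 in Sham, with log2 ratios of -0.27 and -0.34. Rpl8, on the same side, was listed at only 9.51 units in 2VO and 10.3 in Sham, against 156 units in the mouse.

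Genes of the exit tunnel were divided: 5 of 8 were higher, 4 or 5 after rescaling, and the median log2 ratio was 0.08. Their share of 62.5% higher as deposited was close to the 58.7% of all measured genes. Rpl31, at the mouth of the tunnel, was at 230.5 units in 2VO and 182 in Sham, a log2 ratio of 0.34. Its neighbours there were closer together. Rpl23a was at 222 units in 2VO and 202 in Sham, and Rpl26 at 238 in 2VO and 218 in Sham. Rpl35 was at 258 units in 2VO and 238 in Sham, and Rpl19 at 260.2 in 2VO and 268 in Sham. Of the proteins that line the tunnel, Rpl17 was at 171 units in 2VO and 165 in Sham, Rpl4 at 245 in 2VO and 289 in Sham, and Rpl39 at 29.0 in 2VO and 35.2 in Sham. Rpl39, counted here as lower, turned to a log2 ratio of 0.05 when other rows of the same name were added. Rpl10a, which forms the mobile L1 stalk, was at 116 units in 2VO and 103 in Sham.

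Among the other large subunit genes the highest ratio was that of Rpl30, whose protein in yeast binds its own transcript. It was at 139 units in 2VO and 82.0 in Sham, a log2 ratio of 0.75. Next were Rpl27, at 146 units in 2VO and 110 in Sham, Rpl37, at 251 in 2VO and 202 in Sham, and Rpl36, at 121 in 2VO and 100.4 in Sham. Rpl32, Rpl36a and Rpl24 each had a log2 ratio of 0.25, at 209, 52.1 and 156 units in 2VO and 175, 43.6 and 131 units in Sham. At the other end Rpl37a, a zinc-binding protein, was at 229 units in 2VO and 328 in Sham, a log2 ratio of -0.52. Rpl37 and Rpl37a have similar names but encode different proteins, and they went in opposite directions here. All of these stayed under 1.5-fold except Rpl30, and Rpl30 with its like-named row was at a log2 ratio of 0.29, under 1.5-fold and below Rpl27 at 0.41.

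In the small subunit the lowest ratio belonged to Rps9, which lies near the mRNA entry. It was at 60.4 units in 2VO, 92.9 in Sham and 134 in the mouse, a log2 ratio of -0.61. Rps15 and Rps23 reach into the decoding centre, where codon and anticodon meet. Rps15 was at 273 units in 2VO, 381 in Sham and 256 in the mouse, a log2 ratio of -0.48. Rps23 was at 276 units in 2VO, 319 in Sham and 164 in the mouse, a log2 ratio of -0.21. Both were thus lower in 2VO than in Sham by less than 1.5-fold. A list of 6 genes whose proteins line the mRNA entry and exit was also read, and it does not include Rps9. Of these 6 genes 5 had a lower level in 2VO, beside 41.3% of all measured genes, and the median log2 ratio was -0.13. All 6 belong to the small subunit, where 24 of 32 genes were lower and the median was -0.11. The group was therefore close to its subunit. At the entry, Rps2 was at 232 units in 2VO and 285 in Sham, and Rps3 at 255 in 2VO and 269 in Sham. At the exit, Rps28 was at 80.7 units in 2VO and 105 in Sham, and Rps14 at 262 in 2VO and 296 in Sham. Rps26, also at the exit, was the 1 gene of the group higher in 2VO, at 179 units against 164 in Sham.

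Rps21 was at 187 units in 2VO, 258 in Sham and 181 in the mouse, a log2 ratio of -0.46. Rps29, a zinc-binding protein of the head, was at 254 units in 2VO and 326 in Sham, a log2 ratio of -0.36. Rps6, which S6 kinases phosphorylate and whose phosphorylated form is a common readout of mTOR activity, was at 115 units in 2VO, 120.1 in Sham and 114 in the mouse. It was among the members that differed least across all 3 libraries. Rps27a, made as a fusion with ubiquitin, was at 131 units in 2VO, 143 in Sham and 37.4 in the mouse. The small subunit gene with the highest ratio was Rps18, part of a bridge to the large subunit, at 171 units in 2VO, 128 in Sham and 52.2 in the mouse, a log2 ratio of 0.42. Rps25, which in mammals several viral RNAs need for translation, was at 157 units in 2VO and 132 in Sham, a log2 ratio of 0.25. Rpsa, also known as the laminin receptor precursor, was at 248 units in 2VO and 220 in Sham.

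Members whose proteins are found in bacteria and archaea as well were compared with the rest. Of 15 such universal small subunit genes 11 were lower in 2VO and their median log2 ratio was -0.21, and of the 17 others 13 were lower and the median was -0.07. The 18 universal large subunit genes had a median of -0.02 and the 28 other measured ones 0.04, which became slightly negative when the libraries were rescaled. Thus genes lower in 2VO were more numerous than higher ones in both classes of the small subunit. A chosen list of 18 members whose mutation in humans is known to cause Diamond-Blackfan anaemia, a failure of red cell production, was also read. Of these, 9 were higher in 2VO and 9 lower as deposited, with the median at -0.002. After rescaling 6 or 7 were higher and the median lay between -0.06 and -0.04. The 4 X-linked members Rps4x, Rpl10, Rpl36a and Rpl39 had 1 higher, Rpl36a, and 3 lower, but Rpl39 turned to a log2 ratio of 0.05 when its like-named rows were added. All counts of this paragraph as deposited stand beside 58.7% of all measured genes higher and 41.3% lower. The rescaled ones stand beside 48.1% to 51.3% higher.

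Paralogs with tissue-restricted expression stood at low levels. Rpl3l, which replaces Rpl3 in striated muscle, was at 0.321 units in 2VO, 0.274 in Sham and 0.123 in the mouse. Rpl39l, known from the testis, was at 0.0685 units in 2VO, 0.299 in Sham and 0.0461 in the mouse. Rpl10l, the testis copy of Rpl10, was at 0.233 units in 2VO and 1.55 in Sham and was listed at 0 in the mouse. The symbol Rpl32l was found only in the mouse table, at 0.0595 units. Rpl3l, Rpl39l and Rpl10l lay below the filter, and Rpl32l had no value in the rats. These 4 are therefore not among the measured members. Rps27l, a p53-induced paralog of Rps27, was expressed at 4.68 units in 2VO, 6.18 in Sham and 8.34 in the mouse, while Rps27 itself was at 115 in 2VO, 99.4 in Sham and 112 in the mouse.

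Ribosomal protein genes have many retrotransposed copies, and copies can share reads with the gene they came from. By symbol, the RefSeq table for GRCr8 listed 1093 further loci named for the 81 rat members, of which 871 are pseudogenes, with a median of 14 per member and the most, 36, for Rps2. Only 4 members, the paralogs Rpl3l, Rpl10l, Rpl39l and Rps27l, had none. The rat tables hold 74 rows that match such a locus by name, synonym or NCBI gene number, and 29 of these, for 22 members, were measured. Of the 29 rows 8 were higher and 21 lower in 2VO, beside 58.7% of all measured genes higher and 41.3% lower. How reads were shared between copies is not stated in the labels or files. Across the 78 measured members the size of the log2 ratio was nearly unrelated to the number of further loci, with Spearman's rho of 0.08; members share libraries and sequence, so this is a description.

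Sums with these rows changed the picture for a few members. For Rpl30 the row LOC100362027, which RefSeq names Rpl30l2, was at 0.540 units in 2VO and 31.9 in Sham, opposite in direction to Rpl30 itself. Together they made 139 units in 2VO and 114 in Sham, so the log2 ratio was 0.29 for the sum against 0.75 for Rpl30 alone, and no longer 1.5-fold. For Rpl8 the row LOC100360117, which RefSeq names Rpl8-ps7, held 164 units in 2VO and 161 in Sham, or 94.5% and 94.0% of the sum. With it Rpl8 came to 174 units in 2VO and 171 in Sham, beside 156 for Rpl8 in the mouse. For Rpl39, 3 rows added 40.1 units in 2VO and 31.5 in Sham to the gene's own 29.0 units in 2VO and 35.2 in Sham. The sum was 69.1 units in 2VO and 66.7 in Sham, a log2 ratio of 0.05, whereas Rpl39 alone had -0.27.

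Other members moved together with their like-named rows. Rps9 was at 60.4 units in 2VO and 92.9 in Sham, and LOC103689992, the gene number that RefSeq now calls Rps9, was at 69.1 in 2VO and 100.6 in Sham. The sum of 130 units in 2VO and 193 in Sham gave a log2 ratio of -0.57, just under 1.5-fold. Rps19 was at 79.8 units in 2VO and 99.9 in Sham, and the row Rps19-2 at 89.6 in 2VO and 111 in Sham. Rps18 and LOC100360679, named Rps18l1, were both higher in 2VO, the second at 12.2 units against 7.23 in Sham. Rpl17 was joined by RGD1359290, a synonym of Rpl17-ps16, at 31.6 units in 2VO and 22.1 in Sham. Rpl35a stayed low after summing, at 2.84 units in 2VO and 2.37 in Sham, against 85.7 for the gene in the mouse. Rps9 and its companion therefore shared a direction, unlike Rpl30 and its companion.

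**Figure D3:**
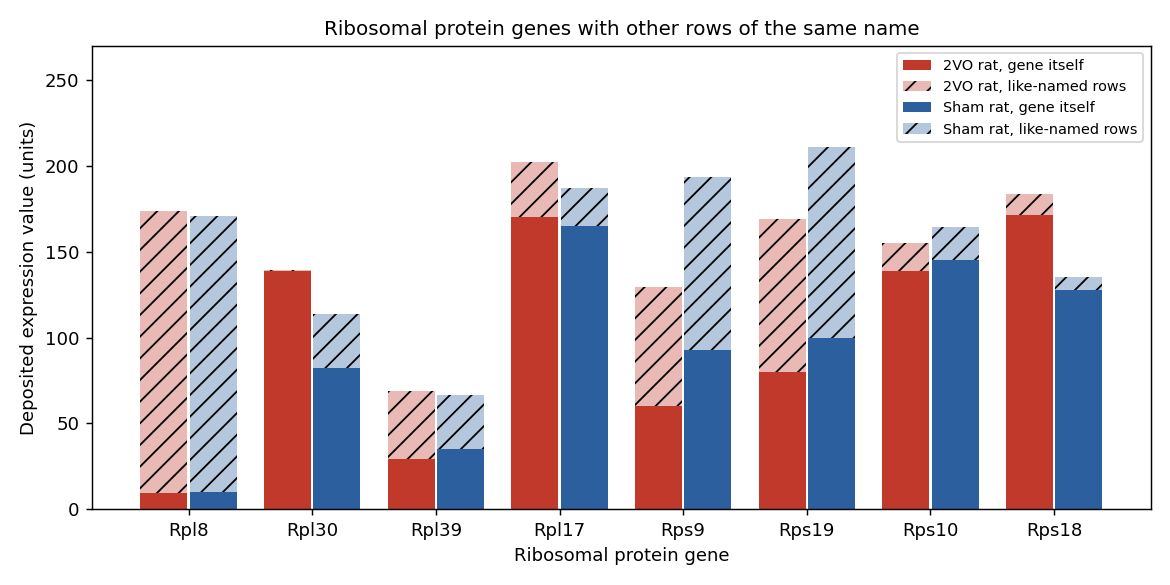
Deposited expression value in units of 8 ribosomal protein genes (solid) and of the measured like-named rows stacked on them (hatched), with 2VO in red to the left and Sham in blue to the right of each pair. Like-named rows hold nearly all of Rpl8 in both rats and part of Rpl30 in Sham alone, while in Rps9 and Rps19 gene and rows are both lower in 2VO.

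The subunit medians did not turn on these rows. With each member summed with its like-named rows the medians were 0.03 in the large subunit and -0.11 in the small, and over the 56 members without a measured row they were 0.03 and -0.08. The number of small subunit genes lower in 2VO was 24 of 32 with the sums and 15 of 21 among those without such rows. These settings were added after the data were seen.

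Other genes of the translation system were read beside the members. Of 6 measured ribosomal protein genes that the symbol rule misses 2 were higher and 4 lower in 2VO. Fau, the source of the small subunit protein eS30, was at 274 units in 2VO and 297 in Sham, a log2 ratio of -0.12. Rpl22l1, a paralog of Rpl22, was at 33.6 units in 2VO and 52.3 in Sham, while Rpl22 was at 73.9 in 2VO and 87.4 in Sham. Rpl36al was at 60.6 units in 2VO and 47.8 in Sham, and Rpl7l1 at 23.0 in 2VO and 21.1 in Sham. Mitochondrial ribosomal proteins, which are encoded in the nucleus and build the separate ribosome of the organelle, had 53 of 78 measured genes higher and 25 lower in 2VO, or 67.9% higher beside 58.7% of all genes. After rescaling 41 to 43 of 78 were higher. Their median log2 ratio was 0.08. Mrpl42 was at 22.9 units in 2VO and 10.5 in Sham, and Mrps28 at 4.17 in 2VO but listed at 0 in Sham. The lowest were Mrpl34, at 18.8 units in 2VO and 27.6 in Sham, and Mrps21, at 33.6 in 2VO and 45.7 in Sham.

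Initiation factors, which bring the mRNA and the first tRNA to the small subunit, were higher in 2VO in 25 of 36 measured genes, 20 or 21 after rescaling, and their median log2 ratio was 0.08. Their extremes were Eif1a, at 10.7 units in 2VO and 7.99 in Sham, Eif3l, at 32.2 in 2VO and 25.2 in Sham, Eif5, at 50.03 in 2VO and 57.4 in Sham, and Eif6, which keeps the subunits apart, at 33.1 in 2VO and 37.97 in Sham. Of 10 elongation and termination factors 3 were higher and 7 lower, as deposited and after rescaling, and their median was -0.03. Abce1, which splits ribosomes for reuse, was at 24.2 units in 2VO and 19.1 in Sham, and Eef1a2, the neuronal and muscle form of the elongation factor, at 381 in 2VO and 334 in Sham. Eef1b2 was at 60.9 units in 2VO and 75.7 in Sham, and Eef2, which moves the ribosome along the mRNA, at 349 in 2VO and 385 in Sham.

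Transcripts with a TOP tract other than the members, some of them also in the lists above, had 9 of 18 higher, 9 lower and a median of 0.01 as deposited, but only 4 or 5 of 18 higher after rescaling. Eif3h, at 39.98 units in 2VO and 31.5 in Sham, and Eif3e, at 29.3 in 2VO and 27.3 in Sham, were the highest, and Eef1b2 and Hnrnpa1, the second at 112 units in 2VO and 128 in Sham, the lowest. Among ribosome assembly genes 25 of 39 were higher, 15 or 16 after rescaling, and the median was 0.02. Dkc1, the pseudouridine synthase of ribosomal RNA, was at 29.3 units in 2VO and 44.0 in Sham, and Pes1 at 18.5 in 2VO and 21.6 in Sham. Nop10, a partner of Dkc1 in the same particles, went the other way at 42.2 units in 2VO and 33.3 in Sham, as did Nmd3, the export adaptor of the large subunit, at 6.74 in 2VO and 5.22 in Sham. In the mTOR pathway 18 of 25 genes were higher, 11 to 15 after rescaling, and the median was 0.05. Lamtor5 was at 29.4 units in 2VO and 22.1 in Sham, Akt1 at 45.9 in 2VO and 54.9 in Sham, and Rheb, which activates mTOR, at 64.3 in 2VO and 72.8 in Sham. These counts as deposited stand beside 58.7% of all measured genes higher in 2VO, and the rescaled ones beside 48.1% to 51.3%. After rescaling, the medians of initiation factors and mitochondrial ribosomal proteins remained above 0, between 0.03 and 0.05, whereas those of the other TOP transcripts and of ribosome assembly lay below 0, between -0.05 and -0.02, and that of the mTOR pathway between -0.005 and 0.01. The sign of the medians of the last 3 lists therefore has no settled direction. The median of all genes was 0.04 as deposited and between -0.009 and 0.006 after rescaling. Beside it the other TOP transcripts and ribosome assembly were slightly lower both ways, and the mTOR pathway was close to it. These gaps are small.

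**Figure D4:**
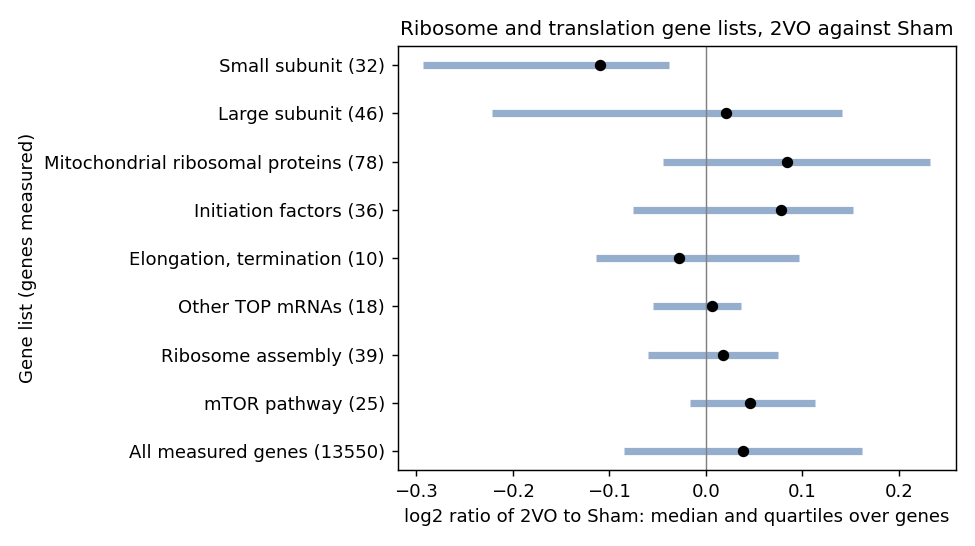
Median (points) and quartiles (bars) of the log2 ratio of 2VO to Sham over the measured genes of each list, with the number of genes in brackets. The small subunit has the lowest median at -0.11, the mitochondrial ribosomal proteins and initiation factors the highest at 0.08, and all measured genes 0.04, which lies within 0.01 of 0 when the libraries are rescaled.

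Markers of several cell types differed between the same rat libraries. Oligodendrocyte markers, 4 of 4 higher, summed to 4156 units in 2VO and 3335 in Sham. Of the astrocyte markers, Gfap was at 360.0 units in 2VO and 778 in Sham, whereas Aqp4, at 83.7 in 2VO and 87.2 in Sham, and Slc1a2, at 187 in 2VO and 188 in Sham, were nearly equal. Microglial markers, 3 of 4 lower, summed to 58.8 units in 2VO and 82.1 in Sham. Choroid plexus markers, 2 of 3 higher, summed to 6.33 units in 2VO and 1.28 in Sham, mostly from Ttr at 4.75 in 2VO and 0.434 in Sham. Ependymal markers, 3 of 3 higher, summed to 8.73 units in 2VO and 5.29 in Sham. The part of these differences in the ribosomal protein values was not tested.

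The mouse and rat tables were made separately, so levels are set side by side across them without reading a species difference. Of 77 measured members present in both species, 62 had a lower level in the mouse than in 2VO, and 62 a lower level than in Sham. No share over all genes stands beside these counts or the 5-fold gaps below. The values of all genes also summed to least in the mouse, at 268889 units. The counts therefore do not set the members apart from other genes. Across these 77 genes Spearman's rho was 0.48 between the mouse and 2VO, 0.49 between the mouse and Sham, and 0.94 between 2VO and Sham; the genes share these libraries, so this is a description. A gap of over 5-fold between mouse and Sham was seen for 6 members. Lower in the mouse were Rpl21, at 8.31 units against 314 in 2VO and 358 in Sham, and Rps20, at 15.6 units against 156 in 2VO and 191 in Sham. The same held for Rps15a, at 20.1 units against 189 in 2VO and 186 in Sham, and for Rpl29, at 34.1 units against 185 in 2VO and 173 in Sham. Higher in the mouse were Rpl35a, at 85.7 units against 1.48 in 2VO and 1.202 in Sham, and Rpl8 as given above. The mouse gene names included 15 further genes named for Rpl21, 8 for Rps15a and 0 for Rps20. Rps3a of the rat, at 241 units in 2VO and 251 in Sham, has the mouse name Rps3a1, which falls outside the symbol rule.

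**Figure D5:**
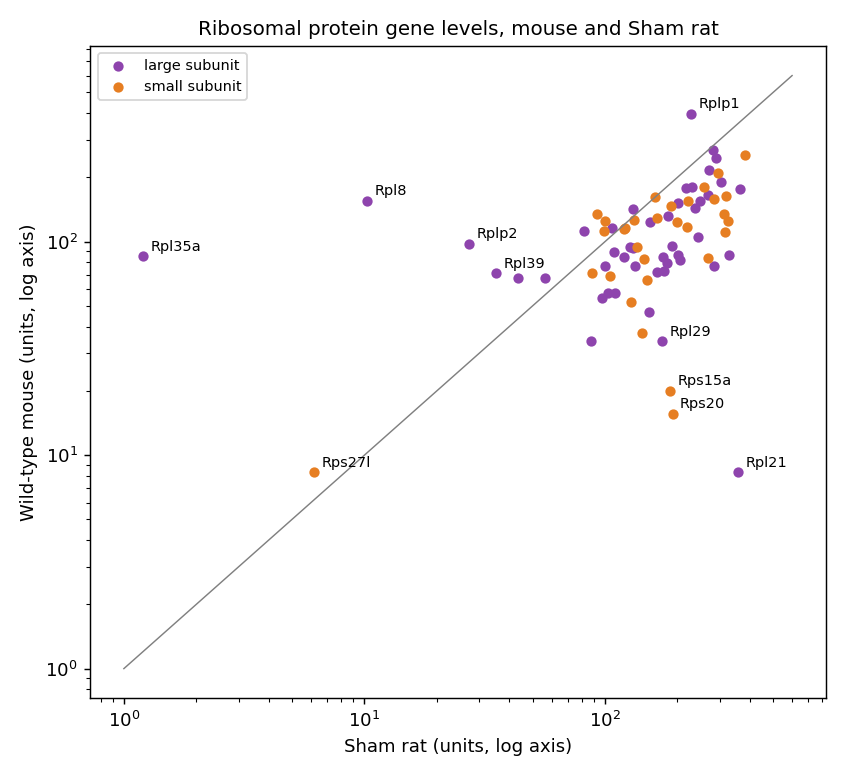
Deposited value of each ribosomal protein gene above 1 unit in the wild-type mouse (vertical, log axis) and the Sham rat (horizontal, log axis), with a line of equal values. Most points lie below the line; Rpl21, Rps20, Rps15a and Rpl29 lie far below it and Rpl35a, Rpl8 and Rplp2 far above.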

How the data were processed

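Per the labels' protocols, TRIzol was used on hippocampus, and the TruSeq v2 RNA kit made each library from 1 µg of total RNA. The builds mRatBN7.2 and GRCm39 and the tools HISAT2 2.1.0, fastp 0.21.0 and DESeq2 appear, without roles, per the submitters' processing notes. The quantifier, annotation and filters used are not stated there. The authors deposited 1 column of normalized expression signal per gene and library, never negative, in a unit that is not stated. These values were compared as deposited, with 1 unit added before log2 ratios and a mean of at least 1 unit over the rats required.

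No test was run, since each group holds 1 library, and depth is unknown. The members and lists were chosen with earlier results of these data known. Genes named are the 10 highest and 10 lowest members by ratio, those at least 1.5-fold apart, the 5 most and 5 least abundant in Sham, those under 1 unit, the stalk, 5S and tunnel groups, and 2 highest and 2 lowest per list; other members are named for their role. A few genes that this rule names are not reported here, though they count in every total and median. Of 10835 rat LOC names 4564 matched a RefSeq gene number of GRCr8, a later build than that of the notes, used for names and start-site sequences only. Like-named loci were found by symbol. The calculation was tested on simulated data. Calculations ran in Python 3.11.15 with numpy 2.4.6, pandas 2.3.3, statsmodels 0.14.6, scipy 1.17.1 and, for figures, matplotlib 3.10.9.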

Additional observations from a re-analysis of the deposited data

How the results depend on the processing

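Scaling to equal upper quartiles gave a median log2 ratio of -0.10 over all ribosomal protein genes, -0.021 over the large subunit and -0.15 over the small; the sum without the 50 most abundant genes gave -0.10, -0.017 and -0.15, a lowess trend (span 0.3) -0.10, -0.021 and -0.15, and median-of-ratios scaling -0.12, -0.034 and -0.16. As deposited these medians were -0.06, 0.02 and -0.11. The large subunit median is therefore too close to 0 to have a direction, and a scaling hardly bears on the large subunit minus the small, 0.13 as deposited, since it moves both nearly alike. Over all members the median was -0.065 both with no filter and with a filter at 5 units. Adding 0.25 or 4 units before the log left each of these medians as it was to 2 decimals. Without any further locus in the reference, 1 measured member remained, Rps27l at -0.34, and 0 were 1.5-fold apart either way; the large subunit had no such measured member. Among the 56 members without a measured like-named row, chosen after the data were seen, the medians were -0.033 over all, 0.030 and -0.082, the subunits differed by 0.11, and 0 members were 1.5-fold higher and 1 lower. With like-named rows summed, the large subunit median was 0.027, the subunits differed by 0.14, and again 0 were higher and 1 lower. Rplp2 was past 1.5-fold in all 9 alternatives run on it, between -1.44 and -1.17, and Rps9 and Rpl30 in 8 of 9, not in the sums. A filter cannot change the ratio of a single gene, and Rplp2 had no measured like-named row to add. The filter settings and, for Rplp2, the sums therefore could not change the call of these named genes. With no filter, however, 3 members were at least 1.5-fold lower, against 2 as deposited. The added member was Rpl10l, at 0.233 units in 2VO and 1.55 in Sham. Rows left unmatched by name were not examined. No paired analysis was possible because each group holds 1 library. Every value is limited by unknown depth, an unstated unit and 1 library per group.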
